A study of Mus musculus with 4 samples.

Results

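Chemokines are small secreted proteins that guide the migration of leukocytes along a gradient. They act through membrane-spanning receptors that couple to inhibitory G proteins, while atypical receptors bind ligands without that coupling and remove or present them. The ligands are named by the spacing of their first cysteines (CC, CXC, CX3C and XC), and many genes of the same class lie side by side in the genome. In islets they are known from the entry of immune cells in autoimmune diabetes, and resident islet macrophages, endothelium, stroma and stressed beta cells can all make them.

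The set was taken from the deposited gene table by symbol. It holds every row named as a CC, CXC, CX3C or XC ligand or receptor or as an atypical receptor, together with Pf4 and Ppbp, which are CXC ligands under older names. That gave 70 rows of 39170, for 66 distinct symbols. Values are FPKM, a read density corrected for transcript length and for library size. The rows that reached at least 1 FPKM in one library numbered 41, and these were compared over the 4 libraries.

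The libraries are total RNA of sorted islet cells of MIP-GFP C57BL/6 males, 6 to 8 weeks old, in which the insulin 1 promoter drives green fluorescent protein. The groups are insulin-positive Glut2-low cells (Glut2L) and insulin-positive Glut2-high cells (Glut2H) of mice made diabetic with streptozotocin (STZ), and Glut2L and Glut2H cells of control mice given vehicle. STZ, a DNA-alkylating toxin taken up through the glucose transporter Glut2, was given intraperitoneally at 200 mg/kg in citrate buffer, and diabetes was present 4 days later. The labels give 3 mice per treatment and do not say whether their cells were pooled. Each group is 1 library, so no test between groups was possible, no p-value is given, and every difference describes these 4 libraries alone.

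The transcript of Glut2 itself went against the gate labels, so gates are named as labelled throughout. Slc2a2 had 33.7 FPKM in the library labelled Glut2L and 10.8 in the one labelled Glut2H of STZ mice, and 41.0 and 8.74 in those labelled Glut2L and Glut2H of control mice. The insulin genes differed the same way. Ins2 had 175841 FPKM in the library labelled Glut2L and 52596 in that labelled Glut2H of STZ mice, and 294540.0 and 57345 in those of control mice; Ins1 had 20766 and 8471, and 30842 and 8955, in the same libraries.

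Markers of leukocytes, endothelium and stroma, and in STZ mice of acinar cells, were carried mostly by the libraries labelled Glut2H, in spite of the insulin gate. Summed over 6 pan-leukocyte markers, FPKM was 22.7 in the Glut2L and 765 in the Glut2H library of STZ mice, and 17.4 and 768 in the Glut2L and Glut2H libraries of control mice. Over 14 macrophage and monocyte markers it was 77.9 and 1273 in STZ mice, and 67.2 and 1228 in control mice, again for Glut2L and Glut2H. Endothelial markers (11) summed to 19.8 and 251 FPKM, and 37.8 and 279, and stromal markers (11) to 21.04 and 700.04, and 44.8 and 817, in the same libraries. Acinar markers (10) summed to 317 and 3586 FPKM in STZ mice, and 2638 and 3249 in control mice, for the same gates. Of those measured, 9 of 10 were 2-fold or more lower in Glut2L cells of STZ mice and 0 of 9 in control mice. Over all measured genes the shares were 17.8% in STZ and 18.5% in control mice. Lists of other leukocytes had lower sums. T and natural killer cell markers (12) summed to 3.10 and 7.62 FPKM in the Glut2L and Glut2H libraries of STZ mice, and 4.57 and 15.7 in those of control mice. Among them Cd3e stayed at or below 0.361 FPKM, Ncr1 at or below 0.0577, and Trac, Klrb1c, Nkg7 and Gzma were listed at 0 in all 4. Cd4, which macrophages can also express, had 6.22 and 9.68 in the Glut2H libraries of STZ and control mice. Lck went the other way, with 2.70 FPKM in the Glut2L and 0.287 in the Glut2H library of STZ mice, and 3.40 and 0.699 in those of control mice. B cell markers (6) summed to 5.73 and 8.33 FPKM in STZ mice, and 8.63 and 32.0 in control mice, with Pax5 at 9.21 and Cd79a at 8.83 in the Glut2H library of control mice. Dendritic cell markers (7) summed to 8.86 and 22.8, and 9.80 and 24.9, for Glut2L and Glut2H, carried in the Glut2H libraries by Itgax at 19.1 in STZ and 17.8 in control mice. Zbtb46, which carried most of the Glut2L sums, went the other way. It had 7.04 FPKM in the Glut2L and 2.85 in the Glut2H library of STZ mice, and 7.40 and 3.77 in those of control mice. Neutrophil and mast cell markers (8) summed to 2.48 and 6.73, and 2.93 and 6.31; S100a8, S100a9, Ly6g and Cpa3 were listed at 0 in all 4, and Csf3r had 4.38 FPKM in the Glut2H library of STZ mice and 3.17 in that of control mice. The part of these cells in the chemokine values was not tested. In bulk RNA, fewer cells of a type and less RNA per cell cannot be told apart.

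Within the set, levels spanned a wide range. Of the 70 rows, 14 were listed at 0 in every library, among them Ccl1, Ccl17, Ccl20, Xcl1, Cxcl17, Cxcr1, Ccr8 and the near-identical copies of Ccl21 and Ccl27 genes. A further 15 stayed under 1 FPKM everywhere, including Ccr2, Ccr3, Ccr4, Ccr6, Ccr9, Cxcr3, Ackr3, Cxcl9 and Cxcl13. Another 14 peaked between 1 and 5 FPKM, and 27 reached at least 5. All 70 had an OK status in each library, so no member was lost to a failed estimate.

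**Figure D1:**
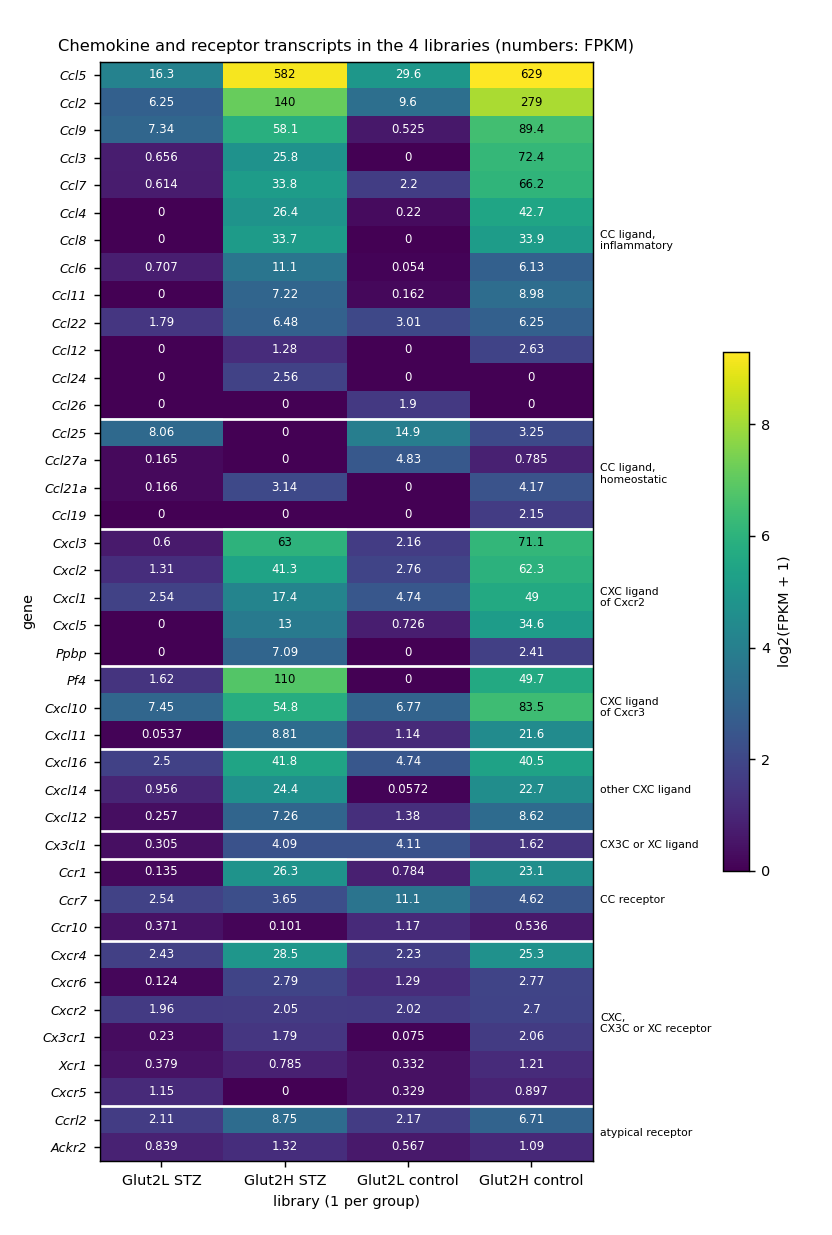
FPKM of 40 members that reached 1 FPKM, 1 row per gene grouped by class and 1 column per library, with colour as log2(FPKM + 1) and the FPKM printed in each cell. The columns of the libraries labelled Glut2H hold most of the bright cells, led by Ccl5 at 582 FPKM in STZ and 629 in control mice, while Ccl25 and, in control mice, Ccr7 are higher in the column labelled Glut2L.

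Comparing the gates asks how Glut2-low cells, which the submitters describe as rich in multipotent progenitors, differ from Glut2-high cells. Most chemokine transcripts were lower in the library labelled Glut2L in both pairs of libraries. Of 36 members measured in the STZ pair (at least 1 FPKM in either library), 31 were 2-fold or more lower in the library labelled Glut2L on log2(FPKM + 1), where 17.8% of all measured genes were. In the control pair 28 of 39 members were 2-fold or more lower, against 18.5% of all measured genes. At least 2-fold higher were 2 of 36 members in STZ mice, with 22.9% of all genes, and 4 of 39 in control mice, with 19.7%. The median log2 ratio of the members was -2.92 in STZ and -2.85 in control mice, beside 0.23 and 0.15 for all measured genes. The 6 pan-leukocyte markers had medians of -4.48 and -4.20, and the macrophage markers measured (12 and 13 of 14) -3.76 and -3.90, in STZ and control mice. Of the members that were 2-fold or more lower, 7 in each pair were listed at 0 in the library labelled Glut2L. Deposited intervals did not overlap for 17 of the lower members in each pair, where 4.15% of all genes in STZ and 4.19% in control mice met the same condition. On the higher side this held for 1 member in STZ mice, Ccl25, with 0.972% of all genes, and for 0 in control mice, with 0.511%. Scaling each library to the same summed FPKM moved the split of all genes to 58.4% higher and 9.79% lower in STZ mice and to 44.3% and 12.1% in control mice, and the median of all genes to 1.18 and 0.87; under it 27 members in each pair were still 2-fold or more lower, and the members' medians were -2.15 and -2.38. A gene listed at 0 can have an interval of no width. Of the 17 lower members with intervals apart, 5 in STZ and 4 in control mice were listed at 0 in the library labelled Glut2L. On the higher side, Ccl25 was listed at 0, with an interval of no width, in the library labelled Glut2H of STZ mice.

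**Figure D2:**
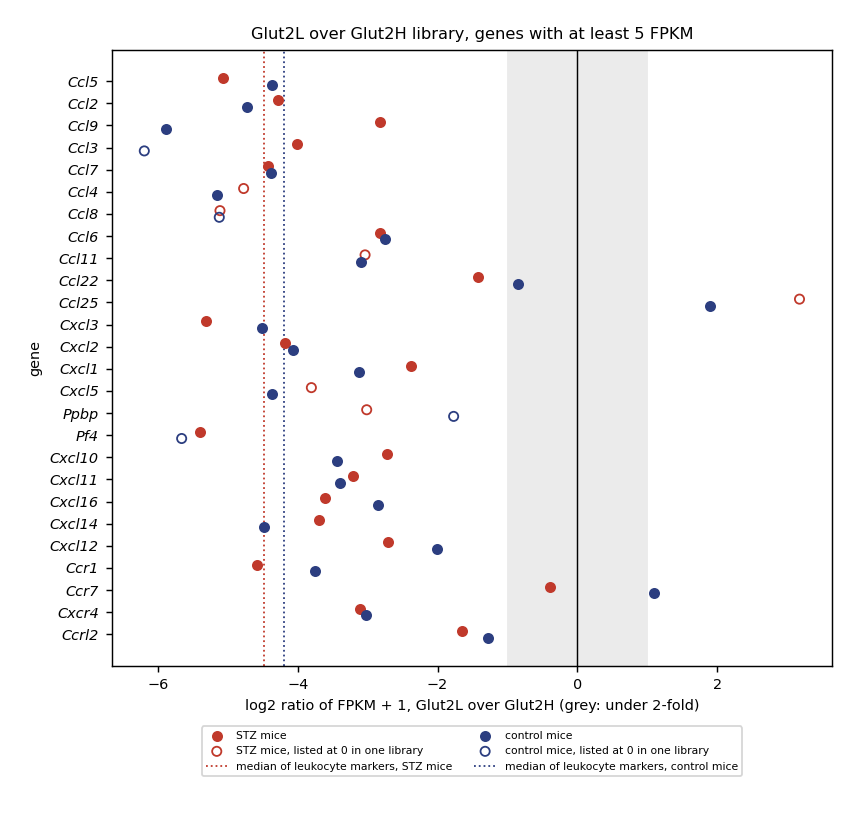
Log2 ratio of FPKM + 1, library labelled Glut2L over library labelled Glut2H, for 26 members with at least 5 FPKM in one library, with STZ mice in red and control mice in blue. Nearly all points lie left of the grey band of under 2-fold, whereas Ccl25 lies to its right in both pairs and Ccr7 in control mice; dotted lines mark the leukocyte marker medians of -4.48 (STZ) and -4.20 (control), and open points have 1 library listed at 0.

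The inflammatory CC ligands formed the most abundant class. Their 16 rows summed to 33.7 FPKM in the Glut2L and 929 in the Glut2H library of STZ mice, and to 47.2 and 1236 in the Glut2L and Glut2H libraries of control mice. Of the 12 measured in each pair, 12 in STZ and 10 in control mice were 2-fold or more lower in the library labelled Glut2L. The share over all measured genes was 17.8% in STZ and 18.5% in control mice. Ccl5, a ligand of Ccr1 and Ccr3 known from T cells, macrophages and platelets (GRCm38 chromosome 11, 83525778 to 83530518), was the most abundant ligand of every library. It had 16.3 FPKM in the Glut2L and 582 in the Glut2H library of STZ mice, and 29.6 and 629 in the Glut2L and Glut2H libraries of control mice. Between the gates, its raw FPKM in Glut2L was 35.7-fold lower in STZ mice and 21.3-fold lower in control mice. Ccl5 alone made up 26.8% of the summed ligand FPKM in the Glut2L and 43.9% in the Glut2H library of STZ mice, and 30.6% and 37.1% in those of control mice.

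Ccl2 (chromosome 11, 82035571 to 82037453) draws monocytes through Ccr2. It had 6.25 FPKM in the Glut2L and 140.04 in the Glut2H library of STZ mice, and 9.60 and 279 in the Glut2L and Glut2H libraries of control mice. Its receptor Ccr2 was low throughout, at 0.420 and 0.302 FPKM in the Glut2L and Glut2H libraries of STZ mice, and listed at 0 and at 0.538 in those of control mice. Ccl7, a related ligand, had 0.614 and 33.8 FPKM in the Glut2L and Glut2H libraries of STZ mice, and 2.20 and 66.2 in those of control mice. Ccl8, another of this group, was listed at 0 in both libraries labelled Glut2L and had 33.7 FPKM in the Glut2H library of STZ and 33.9 in that of control mice. All 4 values of Ccl2 and of Ccl7 separate the gates, with neither library labelled Glut2L reaching a library labelled Glut2H.

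Ccl3 and Ccl4, ligands known from activated macrophages, have similar sequences, and reads could be shared between such copies. Ccl3 had 0.656 FPKM in the Glut2L and 25.8 in the Glut2H library of STZ mice, and was listed at 0 in the Glut2L library of control mice, against 72.4 in the Glut2H library. Ccl4 was listed at 0 in the Glut2L library of STZ mice, against 26.4 FPKM in the Glut2H library, and had 0.220 and 42.7 in the Glut2L and Glut2H libraries of control mice. Ccl9, a myeloid ligand of Ccr1 known from rodents, had 7.34 and 58.1 FPKM in the Glut2L and Glut2H libraries of STZ mice, and 0.525 and 89.4 in those of control mice. Ccl6, a related ligand, had 0.707 and 11.1 FPKM in STZ mice, and 0.0540 and 6.13 in control mice, for Glut2L and Glut2H. On raw FPKM, the gates differed for Ccl9 by 7.91-fold in STZ and 170.3-fold in control mice, where the Glut2L value was below 1 FPKM. On log2(FPKM + 1) its ratios were -2.82 and -5.89. The deposited intervals of Ccl9 overlapped in STZ mice.

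Ccl11, which attracts eosinophils through Ccr3, had a listed 0 and 7.22 FPKM in the Glut2L and Glut2H libraries of STZ mice, and 0.162 and 8.98 in those of control mice. Ccl22, a ligand of Ccr4 known from dendritic cells and macrophages, lay closer between the gates. It had 1.79 and 6.48 FPKM in the Glut2L and Glut2H libraries of STZ mice, and 3.01 and 6.25 in those of control mice, a log2 ratio of -1.42 in STZ and -0.85 in control mice. With equal summed FPKM the STZ ratio was -0.56. Ccl12, Ccl24 and Ccl26 stayed under 3 FPKM, and Ccl26 was listed at 0 in all libraries except the Glut2L library of control mice, at 1.90 FPKM.

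Homeostatic CC ligands, which in other tissues position lymphocytes, did not share one direction. Ccl25 (chromosome 8, 4325210 to 4360020), the ligand of Ccr9 known from thymus and small intestine, had 8.06 FPKM in the Glut2L library of STZ mice and was listed at 0 in the Glut2H library. In control mice it had 14.9 FPKM in the Glut2L and 3.25 in the Glut2H library, a log2 ratio of 1.90. A second row named Ccl25 had 0.457 FPKM and a listed 0 in the Glut2L and Glut2H libraries of STZ mice. In control mice that row had the opposite order, at 0.0469 and 0.498. The Ccl25 model overlaps an exon of Elavl1 on the opposite strand, and Elavl1 had 6.64 and 6.42 FPKM in the Glut2L and Glut2H libraries of STZ mice, and 5.93 and 5.44 in those of control mice. Ccr9, its receptor, stayed at or below 0.621 FPKM. Ccl27a, a skin ligand of Ccr10, had 0.165 FPKM in the Glut2L library of STZ mice and a listed 0 in the Glut2H library, and 4.83 and 0.785 in the Glut2L and Glut2H libraries of control mice; its exons overlap those of Il11ra1. Of the ligands of Ccr7, Ccl21a had 0.166 and 3.14 FPKM in the Glut2L and Glut2H libraries of STZ mice, and a listed 0 and 4.17 in those of control mice, while Ccl19 was listed at 0 except in the Glut2H library of control mice, at 2.15. Ccl21a and Ccl19 have near-identical copies in the mouse genome, so their values are uncertain.

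The CXC ligands of Cxcr2, which attract neutrophils, were lower in the library labelled Glut2L. Of the 5 measured, which include Ppbp, 5 were 2-fold or more lower in STZ and 5 in control mice. This held for 17.8% of all measured genes in STZ and 18.5% in control mice. Cxcl3 had 0.600 FPKM in the Glut2L and 63.0 in the Glut2H library of STZ mice, and 2.16 and 71.1 in the Glut2L and Glut2H libraries of control mice. Cxcl2 had 1.31 and 41.3 FPKM in STZ mice, and 2.76 and 62.3 in control mice, for Glut2L and Glut2H. Cxcl1 (chromosome 5, 90891241 to 90893115) had 2.54 and 17.4 FPKM in STZ mice, and 4.74 and 48.99 in control mice, for the same gates. Cxcl5 was listed at 0 and had 12.997 FPKM in the Glut2L and Glut2H libraries of STZ mice, and 0.726 and 34.6 in those of control mice. Their receptor Cxcr2 differed little, at 1.96 and 2.05 FPKM in the Glut2L and Glut2H libraries of STZ mice, and 2.02 and 2.70 in those of control mice. Of the neutrophil markers, S100a8, S100a9 and Ly6g were listed at 0 in all 4 libraries. Csf3r had 0.302 and 4.38 FPKM in the Glut2L and Glut2H libraries of STZ mice, and 0.698 and 3.17 in those of control mice, and Elane had 1.17 and 1.44 in the Glut2L libraries of STZ and control mice and was listed at 0 in both labelled Glut2H.

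The promoters of Cxcl1, Cxcl2 and Cxcl3 and of Cxcl10 are shown because these genes were lower in both libraries labelled Glut2L and share a word in their upstream sequence. Each line gives the 250 bases before the RefSeq start of the gene on GRCm38.p6, 5′ to 3′ on the gene's strand. Capitals mark the κB word (GGGA, any 2 bases, TTCC), the site form bound by NF-κB, on either strand and, in Cxcl10, also the interferon response word (GAAA, any 2 bases, GAAA).
Cxcl1 (chr5:90890995-90891244, plus strand): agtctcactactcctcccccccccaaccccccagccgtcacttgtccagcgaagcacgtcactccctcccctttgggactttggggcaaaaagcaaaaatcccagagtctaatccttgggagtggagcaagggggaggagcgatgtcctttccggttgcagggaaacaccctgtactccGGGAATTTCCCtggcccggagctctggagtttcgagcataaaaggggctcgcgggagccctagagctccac
Cxcl2 (chr5:90903649-90903898, plus strand): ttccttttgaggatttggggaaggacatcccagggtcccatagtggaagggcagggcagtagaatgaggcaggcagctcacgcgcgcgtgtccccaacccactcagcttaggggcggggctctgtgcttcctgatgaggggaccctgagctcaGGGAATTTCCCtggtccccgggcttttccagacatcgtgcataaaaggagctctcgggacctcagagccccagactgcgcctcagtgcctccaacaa
Cxcl3 (chr5:90785851-90786100, plus strand): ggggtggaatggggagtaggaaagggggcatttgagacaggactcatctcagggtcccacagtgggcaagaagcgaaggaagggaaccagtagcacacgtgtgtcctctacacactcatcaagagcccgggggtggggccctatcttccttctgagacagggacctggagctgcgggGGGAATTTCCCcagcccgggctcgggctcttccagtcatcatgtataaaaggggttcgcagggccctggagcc
Cxcl10 (chr5:92348890-92349139, minus strand): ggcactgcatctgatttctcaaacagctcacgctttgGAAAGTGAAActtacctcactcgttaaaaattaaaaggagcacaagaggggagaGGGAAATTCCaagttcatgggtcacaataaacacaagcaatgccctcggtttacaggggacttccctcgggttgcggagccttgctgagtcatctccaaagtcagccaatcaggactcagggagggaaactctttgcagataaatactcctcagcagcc

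The κB word began 71 bases before the start of Cxcl1, 97 before that of Cxcl2 and 73 before that of Cxcl3. In these 3 genes the capitals are 2 overlapping matches, 1 per strand. In Cxcl10 the κB word began 159 bases and the interferon response word 213 bases before the start. Windows from 250 bases before to 50 after the start were searched, and 27 of the 41 members that reached 1 FPKM had one. Of these, 4 held the κB word, the 4 shown, and 3 held the interferon response word, Cxcl10, Cxcl14 and Ccl19. Over all 32851 mouse windows of that length, 1.47% held the κB word and 3.44% the interferon response word. A match describes the letters of a window and is no evidence of binding here.

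Ppbp and Pf4, CXC ligands stored in platelets, were also lower in the library labelled Glut2L. Pf4 (chromosome 5, 90772435 to 90773383), which is made by mouse macrophages as well, had 1.62 FPKM in the Glut2L and 109.9 in the Glut2H library of STZ mice, and a listed 0 and 49.7 in the Glut2L and Glut2H libraries of control mice. Ppbp was listed at 0 in both libraries labelled Glut2L, and had 7.09 FPKM in the Glut2H library of STZ and 2.41 in that of control mice. Platelet markers had no single direction. The 9 genes summed to 18.6 FPKM in the Glut2L and 8.98 in the Glut2H library of STZ mice, and to 20.7 and 11.5 in those of control mice. Of 6 measured in STZ mice, 2 were 2-fold or more higher and 2 lower in Glut2L cells, and of 4 in control mice 2 were higher and 1 lower. The shares over all measured genes were 22.9% higher and 17.8% lower in STZ mice, and 19.7% and 18.5% in control mice. So few genes cannot be told from these shares. Itga2b carried most of the Glut2L sums, at 12.9 FPKM in STZ and 11.6 in control mice. Itgb3 had the direction of Pf4 and Ppbp, at 0.619 and 3.07 FPKM in the Glut2L and Glut2H libraries of STZ mice, and 0.602 and 3.97 in those of control mice, as did Tubb1 in STZ mice, listed at 0 and at 1.30. Gp6 and Treml1 were listed at 0 in all 4 libraries and Gp9 in both labelled Glut2H. The part of platelets in these values was not tested.

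Ligands of Cxcr3, induced by interferon, were measured as Cxcl10 and Cxcl11, since Cxcl9 stayed at or below 0.938 FPKM. Cxcl10 (chromosome 5, 92346638 to 92348889), whose promoter is shown above, had 7.45 FPKM in the Glut2L and 54.8 in the Glut2H library of STZ mice, and 6.77 and 83.5 in the Glut2L and Glut2H libraries of control mice. Cxcl11, which carries a frameshift in C57BL/6 mice, had 0.0537 and 8.81 FPKM in STZ mice, and 1.14 and 21.6 in control mice, for Glut2L and Glut2H. Exons of Cxcl10 overlap those of Art3 on the opposite strand, which had 1.24 FPKM in the Glut2H library of STZ mice and 1.36 in that of control mice, and was listed at 0 in both libraries labelled Glut2L. Cxcr3 stayed at or below 0.870 FPKM in every library.

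The remaining CXC ligands were lower in the library labelled Glut2L as well. Cxcl12, which stromal cells make and which keeps Cxcr4-bearing cells in place, had 0.257 FPKM in the Glut2L and 7.26 in the Glut2H library of STZ mice, and 1.38 and 8.62 in those of control mice. Cxcl14, an epithelial and stromal ligand, had 0.956 and 24.4 FPKM in STZ mice, and 0.0572 and 22.7 in control mice, for Glut2L and Glut2H. Cxcl16, a membrane-bound ligand of Cxcr6, had 2.50 and 41.8 FPKM in STZ mice, and 4.74 and 40.5 in control mice, for the same gates. The Cxcl16 value is uncertain because its exons overlap those of Zmynd15 on the opposite strand. Zmynd15 had close values, at 6.02 and 39.4 FPKM in the Glut2L and Glut2H libraries of STZ mice, and 2.83 and 44.8 in those of control mice. Cx3cl1, the membrane-bound ligand of Cx3cr1, had opposite orders in the 2 pairs, with 0.305 and 4.09 FPKM in the Glut2L and Glut2H libraries of STZ mice, and 4.11 and 1.62 in those of control mice. Its deposited intervals overlapped in both pairs.

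Among clusters of ligand genes, the measured members of the CC cluster of chromosome 11 and of the CXC cluster of chromosome 5 had one direction between the gates. Smaller ligand clusters had too few measured members to show whether they share a direction. On chromosome 11, from 82035571 to 83664683, lie 11 CC ligand genes from Ccl2 to Ccl4, of which 10 reached 1 FPKM, and all 10 were 2-fold or more lower in the library labelled Glut2L in both STZ and control mice. On chromosome 5, from 90759360 to 92365485, lie 10 CXC ligand genes from Cxcl5 to Cxcl11, of which 8 reached 1 FPKM, and all 8 were 2-fold or more lower there in both pairs. Cxcl15 of this cluster, under 1 FPKM throughout, had the other order. It had 0.528 and 0.198 FPKM in the Glut2L and Glut2H libraries of STZ mice, and 0.257 and a listed 0 in control mice. On chromosome 4, from 41769467 to 42773993, 1 of 1 measured in STZ and 2 of 3 in control mice were lower (Ccl19 and Ccl21a), while Ccl27a was higher. On chromosome 8, from 94745590 to 94812036, Ccl22 and Cx3cl1 were both lower in STZ mice and neither in control mice. On chromosome 5, from 135560448 to 135573049, Ccl24 was lower in STZ mice and Ccl26 higher in control mice. Neighbours here were grouped at gaps of up to 2 Mb. Over all measured genes, 17.8% in STZ and 18.5% in control mice were 2-fold or more lower in the library labelled Glut2L. Of all measured members of the set, 31 of 36 in STZ and 28 of 39 in control mice were, so the direction was not particular to these clusters.

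Receptors were fewer and lower than ligands. The 24 receptor rows summed to 18.3 FPKM in the Glut2L and 134 in the Glut2H library of STZ mice, and to 24.3 and 133 in those of control mice, where the 44 ligand rows summed to 60.9 and 1326, and to 96.5 and 1696. Ccr1, a receptor of Ccl3, Ccl5, Ccl6 and Ccl9 on monocytes and macrophages, had 0.135 and 26.3 FPKM in STZ mice, and 0.784 and 23.1 in control mice, for Glut2L and Glut2H. Cxcr4, the receptor of Cxcl12 on leukocytes and many progenitors, had 2.43 and 28.5 FPKM in STZ mice, and 2.23 and 25.3 in control mice, for the same gates. Both receptors separated the gates without overlap of their values.

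Ccr7 had opposite orders in the 2 pairs, while Ccrl2 and Cx3cr1 were 2-fold or more lower in the library labelled Glut2L in both. Ccr7 (chromosome 11, 99144196 to 99155077), the receptor that takes dendritic and T cells to lymph nodes, had 2.54 FPKM in the Glut2L and 3.65 in the Glut2H library of STZ mice, and 11.1 and 4.62 in the Glut2L and Glut2H libraries of control mice. It was the most abundant receptor of the Glut2L library of control mice, with 45.5% of that library's receptor FPKM, and held 3.48% in the Glut2H library. Its log2 ratio between the gates was -0.39 in STZ and 1.10 in control mice. The control ratio was 0.95 after centring all log2 ratios on 0 and 0.74 with a pseudocount of 5. Ccrl2, an atypical receptor that binds chemerin, had 2.11 and 8.75 FPKM in the Glut2L and Glut2H libraries of STZ mice, and 2.17 and 6.71 in those of control mice. Its log2 ratio in STZ mice was -0.75 with equal summed FPKM. With a pseudocount of 5 it was -0.95 in STZ and -0.71 in control mice. The deposited intervals of Ccrl2, and those of Cx3cr1, overlapped in both pairs. Cx3cr1, a marker of resident macrophages and monocytes, had 0.230 and 1.79 FPKM in STZ mice, and 0.0750 and 2.06 in control mice, for Glut2L and Glut2H. Cxcr6 had 0.124 and 2.79, and 1.29 and 2.77, in the same libraries. Ackr2, a scavenger of inflammatory CC ligands, ranged from 0.567 to 1.32 FPKM over the 4 libraries, Xcr1 from 0.332 to 1.21 and Ccr10 from 0.101 to 1.17. Cxcr5, at 1.15 FPKM in the Glut2L library of STZ mice, was listed at 0 in the Glut2H library, and had 0.329 and 0.897 in those of control mice. Exons of Cxcr5 overlap those of Bcl9l on the opposite strand. Bcl9l ranged from 1.80 to 2.75 FPKM over the 4 libraries.

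**Figure D3:**
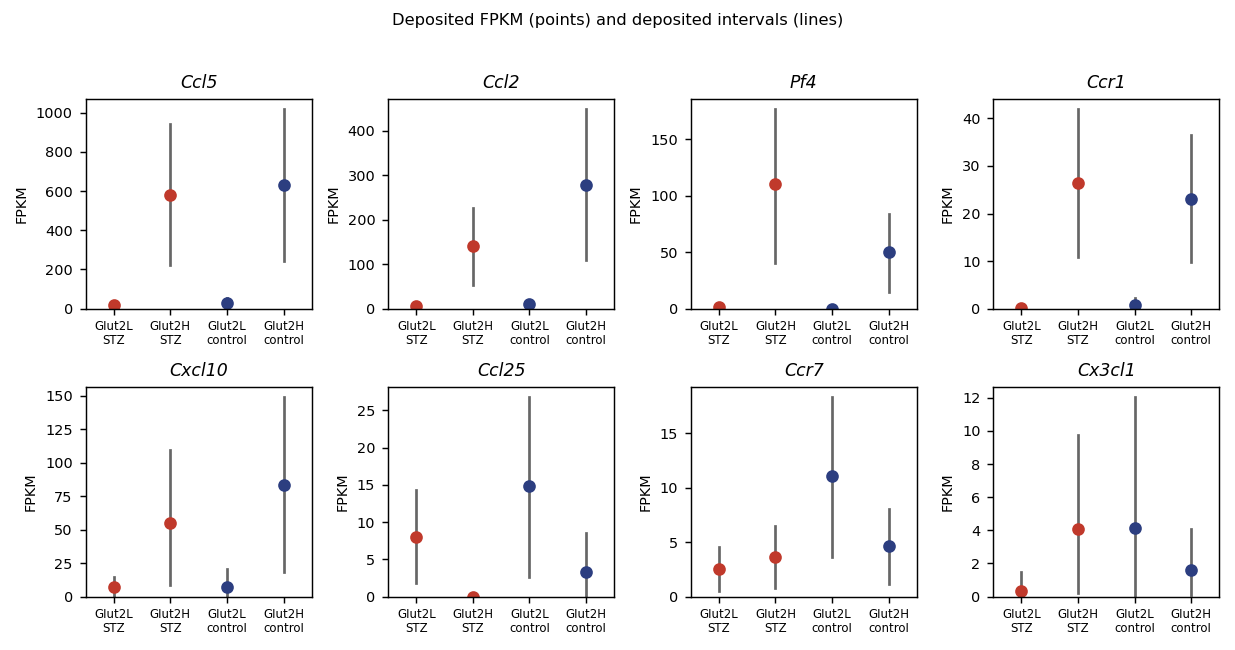
FPKM (points) with the deposited intervals (lines, level not stated) of 8 members in the 4 libraries, on linear axes from 0, with STZ in red and control in blue. The intervals of Ccl5 and Ccl2 leave a gap between the gates in both pairs, and those of Cx3cl1 and Ccr7 overlap within each pair.

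Genes that act with chemokines were taken from lists chosen beside the members. Of the signalling genes downstream of the receptors, 0 of 28 were 2-fold or more higher and 15 2-fold or more lower in the library labelled Glut2L of STZ mice, and 0 and 15 of 29 in control mice (medians -1.42 and -1.31). For this list and the next ones, the shares over all genes were 22.9% higher and 17.8% lower in STZ mice, and 19.7% and 18.5% in control mice. Rgs1, which dampens receptor signalling in leukocytes, had 27.4 FPKM in the Glut2L and 163 in the Glut2H library of STZ mice, and 8.78 and 303 in those of control mice, while Gnai2, the main inhibitory G protein subunit of leukocytes, had 77.5 and 69.8, and 90.5 and 68.6. Among inputs that raise chemokine transcription (NF-κB and interferon genes), 1 of 23 was 2-fold or more higher and 12 were lower in the library labelled Glut2L of STZ mice, and 1 and 13 of 24 in control mice. The higher gene was the interleukin 1 receptor gene Il1r1 in both pairs, with 55.8 and 25.9 FPKM in the Glut2L and Glut2H libraries of STZ mice, and 58.5 and 27.6 in those of control mice. Tnf, an inducer of many of these ligands, was listed at 0 and had 13.2 FPKM in STZ mice, and 0.191 and 11.5 in control mice, for Glut2L and Glut2H. Of the proteases and binding partners of chemokines, 1 of 10 was higher and 6 were lower in STZ mice, and 1 and 7 of 11 in control mice. The higher gene in STZ mice was Adam10, a protease that sheds Cx3cl1 and Cxcl16, at 30.1 FPKM in the Glut2L and 14.0 in the Glut2H library, and in control mice Dpp4, which cleaves several chemokines, at 9.29 and 3.04.

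The comparison of STZ with control within a gate asks how each sorted population differed after the toxin. In the libraries labelled Glut2H, receptors and most ligands differed under 2-fold. Cxcl1, Ccl3, Cxcl5, Cxcl11, Ccl25 and Ccl19 were lower after STZ, and Pf4, Ppbp and Ccl24 were higher. Of 37 members measured, 3 were 2-fold or more higher and 6 2-fold or more lower, where 9.62% and 13.8% of all measured genes were. The members' shares, 8.11% and 16.2%, were near that background, so the counts say nothing particular about chemokines. The median log2 ratio was -0.22, beside -0.07 for all genes. For 0 of these 9 members were the deposited intervals apart, a condition that 0.379% of all genes met on the higher and 0.656% on the lower side.

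Cxcl1 had 17.4 FPKM in the STZ and 49.0 in the control library labelled Glut2H, a log2 ratio of -1.44. Ccl3 had 25.8 and 72.4 FPKM (-1.45), Cxcl5 12.997 and 34.6 (-1.35) and Cxcl11 8.81 and 21.6 (-1.21) in the STZ and control libraries. Ccl2, at 140.04 and 279 FPKM in the STZ and control libraries, lay at the threshold with a log2 ratio of -0.99, and Ccl7, at 33.8 and 66.2, at -0.95. The other 2 members that were 2-fold or more lower, Ccl25 and Ccl19, were listed at 0 in the STZ library. Pf4 had 109.9 FPKM in the STZ and 49.7 in the control library (log2 ratio 1.13), Ppbp 7.09 and 2.41 (1.24), and Ccl24 had 2.56 and was listed at 0 in the control library. Ccl5, at 582 and 629 FPKM, and Ccl8, at 33.7 and 33.9, were close between STZ and control. Cx3cl1 had 4.09 FPKM in the STZ and 1.62 in the control library, just under the threshold at 0.96. None of 10 measured receptors differed 2-fold or more, with Cxcr4 at 28.5 and 25.3 FPKM and Ccr1 at 26.3 and 23.1 in the STZ and control libraries.

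Marker sums of these 2 libraries stood beside the ligands as follows. Pan-leukocyte markers summed to 765 FPKM in the STZ and 768 in the control library labelled Glut2H, and macrophage markers to 1273 and 1228. B cell markers (6) summed to 8.33 and 32.0, T and natural killer cell markers (12) to 7.62 and 15.7, endothelial markers to 251 and 279 and red blood cell markers (6) to 0 and 83.2 in the STZ and control libraries. Their part in the ligand values was not tested. Inputs of chemokine transcription were 2-fold or more lower after STZ for 4 of 24 and higher for 0, shares of 16.7% and 0% beside 13.8% and 9.62% of all genes, so the lower share was near the background. The 4 were Il6 at 22.5 FPKM in the STZ and 97.9 in the control library, the interferon factor gene Irf1 at 25.5 and 57.6, the NF-κB inhibitor gene Tnfaip3 at 14.2 and 31.0 and Ifnb1 at 0.267 and 4.07. Tnf, at 13.2 and 11.5 FPKM, and Il1b, at 19.8 and 14.2, were close between the STZ and control libraries. Of 10 measured genes of a chemerin and chemokine-like list, 1 was 2-fold or more higher after STZ and 1 lower. Over all genes the shares were 9.62% and 13.8%, so these counts were near the background. The higher one was the chemerin receptor gene Cmklr1, at 41.8 FPKM in the STZ and 9.69 in the control library. The lower one was Fpr2, listed at 0 in the STZ library and at 3.57 FPKM in the control library.

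**Figure D4:**
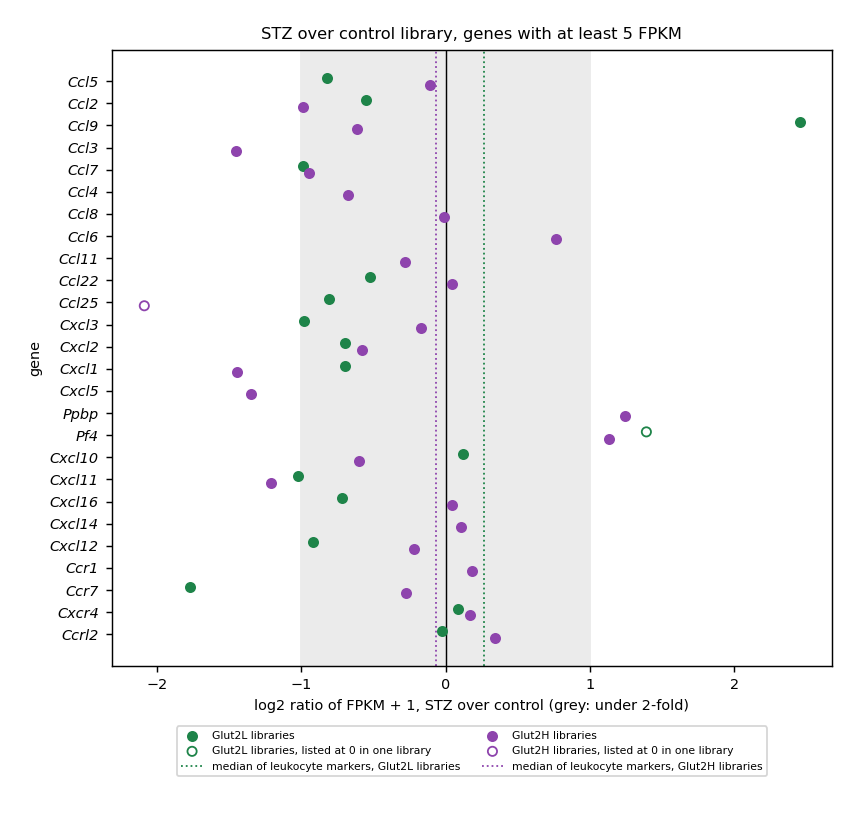
Log2 ratio of FPKM + 1, STZ over control library, for members with at least 5 FPKM in one library, with the libraries labelled Glut2L in green and those labelled Glut2H in purple; only genes with at least 1 FPKM in either library of a pair are plotted. Most purple points lie within the grey band of under 2-fold, with Ccl3, Cxcl1, Cxcl5 and Cxcl11 to its left and Pf4 and Ppbp to its right; among green points Ccl9 (2.45) and Pf4 (open) lie to the right and Ccr7 (-1.77) and Cxcl11 (-1.02) to the left. Open points have 1 library listed at 0, and dotted lines mark the leukocyte marker medians of 0.26 (Glut2L) and -0.07 (Glut2H).

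In the libraries labelled Glut2L, values were low and few members were measured. Of 25 members, 3 were 2-fold or more higher after STZ and 6 lower, where 10.2% and 11.1% of all measured genes were, and the median log2 ratio was -0.70 beside 0.00 for all genes. For 0 of these 9 members were the deposited intervals apart, beside 0.32% and 0.41% of all genes on the higher and lower side. Ccl9 had 7.34 FPKM in the STZ and 0.525 in the control library labelled Glut2L. Pf4 had 1.62 FPKM in the STZ library and was listed at 0 in the control library. The lower members were Ccr7, at 2.54 and 11.1 FPKM in the STZ and control libraries, Cx3cl1 at 0.305 and 4.11, Ccl27a at 0.165 and 4.83, Cxcl11 at 0.0537 and 1.14, Cxcr6 at 0.124 and 1.29, and Ccl26, listed at 0 and at 1.90. Ccl25 had 8.06 FPKM in the STZ and 14.9 in the control library, a log2 ratio of -0.81, and Cxcl10, at 7.45 and 6.77, was close. Pan-leukocyte markers summed to 22.7 FPKM in the STZ and 17.4 in the control library, macrophage markers to 77.9 and 67.2, and 10 acinar markers to 317 and 2638. Their part in these values was not tested. Whether STZ effects differed between the gates was not tested either, since each group is 1 library.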

How the data were processed

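The authors deposited FPKM with an interval (level not stated) and a status per gene and library, per the file headers of a Cuffdiff gene table. Per the submitters' processing notes, TopHat2, SAMtools and Cuffdiff were run on GRCm38 (mm10); per the labels' protocols, libraries were stranded total RNA after Ribo-Zero Gold. Versions, annotation release, library normalization and use of strand in counting are not stated in these sources. Of 156680 values in the separate sample tables, 0 differed from the series table. Read depth is unknown: low values showed no shared step (of 1541 genes under 0.5 FPKM in both libraries labelled Glut2L, the fullest bin of 0.05 log2 held 39). The deposited FPKM of the Glut2L STZ, Glut2H STZ, Glut2L control and Glut2H control libraries summed to 1562040, 3428740, 1654280 and 2935080. The short gene Gm20594 took 4.15%, 68.5%, 3.86% and 61.0% of these.

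Members were found by symbol with Python 3.11.15 and pandas 2.3.3. Positions are from GENCODE M21, which holds 65 of the 70 rows by Ensembl ID; promoters are RefSeq's. Differences took log2(FPKM + 1) of genes with at least 1 FPKM in either library and an OK status in both, and counted at least 2-fold. With 1 library per group there is no test. On simulated data made from the Glut2H control values, 200 of 200 planted 4-fold changes among 14379 genes were recovered and 0 unchanged genes were called. That checked the code alone and gives no error rate for the real pairs of libraries. Members with at least 5 FPKM in one library were named with all values, except 1 that is in the counts and sums and not reported here, the others by value or range; from the other lists, genes were named by level, by a 2-fold difference at 5 FPKM, or as defining markers, and a few after their values were seen. The platelet list and both promoter words were added after the values were seen. All members and lists were chosen with earlier results of these data known. Alternatives were pseudocounts, filters, scalings, the deposited intervals, the sample tables and left-out members.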

Additional observations from a re-analysis of the deposited data

Results flagged for a closer look

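A gene is described here because its ratio under the same contrast had opposite signs in the 2 gates, or in STZ and control mice, with the 2 log2 ratios at least 2 apart. Of all genes measured in both gates, 7.4% met this for the STZ contrast (3 of 21 members), and of those measured in both treatments, 6.16% met it for the gate contrast (1 of 34). These shares are background rates, and no difference was tested.

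For Ccl9, the log2 ratio of STZ over control was 2.45 in the libraries labelled Glut2L and -0.61 in those labelled Glut2H, a difference of 3.06. For Cx3cl1 it was -1.97 and 0.96, a difference of -2.92; the gate contrast of Cx3cl1, at -1.96 in STZ and 0.96 in control mice, gave the same difference of -2.92 because it uses the same 4 values. Each of these rests on at least 1 value below 1 FPKM.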

How the results depend on the processing

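With 1 FPKM value per group and unknown depth, counting error and animal variation could not be measured, and no replicate could be left out. No paired analysis was possible because each group is 1 library. Of 96 counts recomputed over 12 alternatives, 72 stayed within 1.5 times the reported count and 24 did not. Among the alternatives, 2 could not change a count. The sample tables held the same values, and a 2-fold difference on log2(FPKM + 1) already needs 1 FPKM, so dropping that filter had no effect.

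Between the gates in STZ mice, the 2 higher members became 1 with a pseudocount of 5, a filter of 5 FPKM, the median centred on 0 or intervals required to be apart, and 0 without members whose exons overlap another gene; the 31 lower became 17 with intervals apart. In control mice the 4 higher became 1 with a pseudocount of 5, 2 with a filter of 5 FPKM, 2 without exon-overlapping members and 0 with intervals apart; the 28 lower became 17. For STZ over control in the libraries labelled Glut2L, the 3 higher became 1 with a pseudocount of 5, 1 with a filter of 5 FPKM, 5 with equal summed FPKM and 0 with intervals apart; the 6 lower became 11 with a pseudocount of 0.1, 1 with a pseudocount of 5, 1 with a filter of 5 FPKM, 10 with equal sums and 0 with intervals apart. In those labelled Glut2H, the 3 higher became 1 and the 6 lower 3 with a pseudocount of 5, and both 0 with intervals apart. With equal sums Pf4 dropped to a log2 ratio of 0.90 there, while Ccl2 (-1.21) and Ccl7 (-1.16) passed 2-fold. Causes of these shifts were not tested. The alternatives on exon overlap and protein-coding rows were chosen after seeing the data.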

Other observations

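A list of chemokine-like and chemerin pathway genes, which includes the member Ccrl2, was counted in the same way. Between the gates, 0 of 9 were at least 2-fold higher and 7 lower in Glut2L cells of STZ mice, and 0 and 8 of 10 in control mice, beside 22.9% higher and 17.8% lower of all genes in STZ mice and 19.7% and 18.5% in control mice. Mif, a cytokine that binds Cxcr4 and Cd74, was among those that differed under 2-fold, at 161 FPKM in the Glut2L and 177 in the Glut2H library of STZ mice, and 178 and 199.6 in those of control mice. Mmp12, a macrophage protease that cleaves chemokines, had 12.95 and 387 FPKM in STZ mice, and 7.04 and 269 in control mice, for Glut2L and Glut2H.

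Set against the summed FPKM of the 6 pan-leukocyte markers of the same library, Ccl5 came to 71.8% in the Glut2L and 76.2% in the Glut2H library of STZ mice, and to 169.9% and 81.9% in those of control mice. Ccr7 came to 11.2% and 0.477% in STZ mice, and to 63.6% and 0.601% in control mice, for Glut2L and Glut2H. Ccl22 came to 7.91% and 0.847%, and to 17.3% and 0.814%, in the same libraries. Other members went the other way. Pf4 came to 7.14% and 14.4% in STZ mice, and to 0% and 6.47% in control mice, for Glut2L and Glut2H. Ccl8 came to 0% in both libraries labelled Glut2L, and to 4.40% and 4.42% in the Glut2H libraries of STZ and control mice. Marker sums in the Glut2L libraries were only 22.7 FPKM in STZ and 17.4 in control mice, so their percentages are uncertain.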
